A study of Bombyx mori with 4 samples.

Results

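Allatostatin A (AST-A, gene model BGIBMGA014377) and the neuropeptide F genes NPF1 (BGIBMGA006281) and NPF2 (BGIBMGA009803) encode precursors of signalling peptides and were followed through all libraries of a study of heat exposure in the silkworm midgut. These 3 of the 5558 listed gene models were picked by their identifiers, because their values in these libraries stood out, so the levels and ratios below describe them and are not tests. The models were named by their best protein matches, which are silkworm allatostatin A preprohormone, neuropeptide F 1 isoform b precursor and neuropeptide F 2 precursor.

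RNA came from midguts of Bombyx mori larvae in their final larval stage, the fifth instar, on its day 2. The groups were 932 control, 932 heat, HY control and HY heat, where the labels call variety 932 thermotolerant and variety HY thermosensitive, and heat means exposure to high temperature. The sources used here do not state the temperature, the length of exposure or the number of larvae behind a library. With 1 library in each group, differences between libraries have no replicate to be checked against. The intervals given below cover counting error only, and variation between larvae or library preparations could not be measured.

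Neuropeptides are cut from larger precursors, often amidated at the carboxyl end, stored in dense vesicles and released when the cell is stimulated. In the insect gut they are made mainly by enteroendocrine cells scattered through the epithelium and by nerves that run over the gut wall. A-type allatostatins are named for blocking juvenile hormone synthesis in cockroaches, and in moths they are better known for inhibiting gut contraction. Neuropeptide F is the insect relative of vertebrate neuropeptide Y and is tied to feeding and metabolism in fruit flies.

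Values are in RPM, the tags of a gene for each 1000000 tags sequenced in its library. They are not scaled by gene length, so levels are compared between libraries and not between genes. Library totals worked out from the values, in units of 1000000 tags, were 6.14 (932 control), 5.83 (932 heat), 5.80 (HY control) and 6.01 (HY heat). A tag was worth 0.163 to 0.172 RPM. The listed genes held 18.6% of these tags in 932 control, 15.2% in 932 heat, 11.6% in HY control and 15.0% in HY heat. The totals were sought with the lowest value above 0 in each library taken as 2 tags. On that basis a gene listed at 0 can have had 0 tags or 1. Intervals in square brackets are exact 95% intervals and cover counting error only. Midgut epithelium markers were abundant, with a summed level of 8876 to 16434 RPM over 41 genes named for digestive and peritrophic proteins.

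AST-A was seen almost wholly in the unheated HY midgut. It was listed at 0 in 932 control, read 0.86 RPM in 932 heat (5 tags), 22.4 RPM in HY control (130 tags) and 1.67 RPM in HY heat (10 tags). HY control was the high library, and the other 3 lay at or below 1.67 RPM. The counting interval of HY control, 18.7 to 26.6 RPM, did not reach those of HY heat, 0.798 to 3.06 RPM, or 932 heat, 0.279 to 2.00 RPM.

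NPF1 had the opposite distribution and was listed in the 932 libraries alone. It read 18.1 RPM in 932 control (111 tags) and 23.0 RPM in 932 heat (134 tags), and it was listed at 0 in HY control and in HY heat. Both 932 libraries were high and neither HY library had a listed tag.

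NPF2 followed the same division by variety. It read 9.77 RPM in 932 control (60 tags), 12.2 RPM in 932 heat (71 tags) and 0.34 RPM in HY control (2 tags), and it was listed at 0 in HY heat. The lower end of the 932 control interval was 7.46 RPM, and the upper end of the HY control interval was 1.25 RPM.

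**Figure D1:**
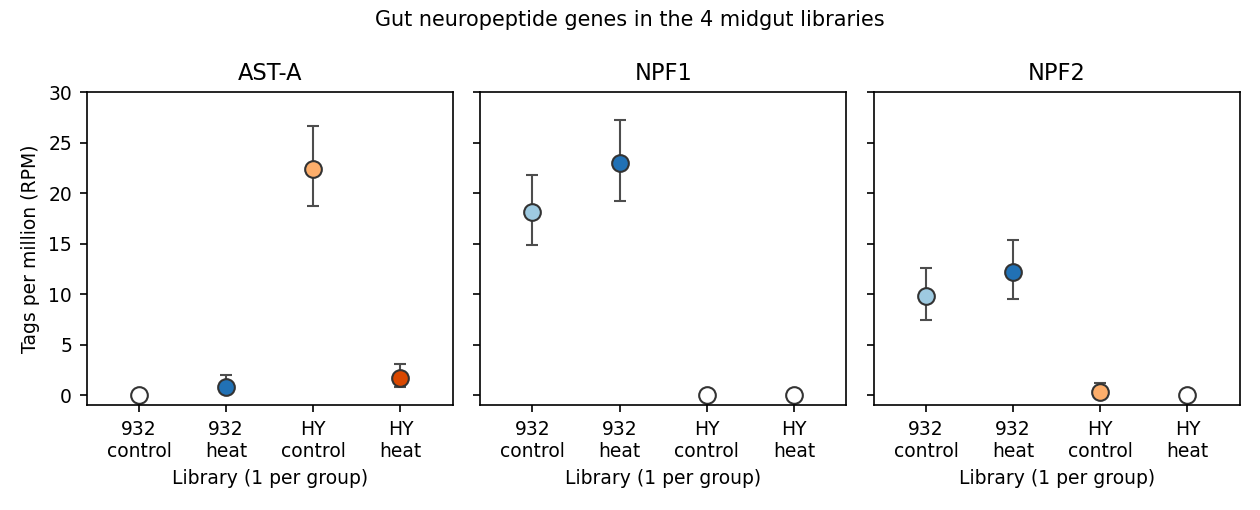
Level of AST-A, NPF1 and NPF2 in RPM (vertical axis) in each of the 4 midgut libraries (horizontal axis). Filled points are single libraries with exact 95% counting intervals, and open points are libraries where the gene was listed at 0. AST-A stands at 22.4 RPM in HY control and at no more than 1.67 RPM elsewhere, while NPF1 and NPF2 stand at 9.77 to 23.0 RPM in the 932 libraries and at 0 to 0.34 RPM in the HY libraries.

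Being listed at 0 in a variety does not show that the gene was silent there. The ribosomal protein gene RpL32 (BGIBMGA000066), which cells of every kind use, was listed at 0 in 932 control and read 0.34 RPM in 932 heat, against 788 RPM in HY control and 1138 RPM in HY heat. RpL32 was chosen after its values were seen. No fold is therefore given where a library was listed at 0, and whether a tag failed to be counted in one variety was not tested.

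The first question was how each peptide gene read after heat within a variety. In 932, NPF1 was 1.27-fold higher after heat, with an interval of [0.981 to 1.65], and NPF2 was 1.25-fold higher, with [0.871 to 1.79]. Both intervals include no change, so neither difference was detectable beyond counting error at this depth. AST-A in 932 went from being listed at 0 to 5 tags, and it did not reach 1 RPM in either library.

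In HY, AST-A was 13.4-fold lower after heat, with an interval of [7.09 to 28.7], or -3.75 [-4.84 to -2.83] as a log2 ratio. HY heat read higher than HY control over most genes, with a median log2 ratio of (RPM + 1) of 0.34. Taking that median from the plain AST-A ratio, which has nothing added, gave -4.08. On the scale of log2(RPM + 1), which understates the change of low genes, the AST-A ratio was -3.13 before centring, and 4 of 2810 genes, AST-A included, lay at or below it. NPF1 was listed at 0 in both HY libraries and NPF2 had 2 tags and then none listed, so no response to heat can be read for either.

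Calls of higher or lower required a 2-fold ratio on the log2(RPM + 1) scale and a level of 1 RPM or more in either library of the pair. In 932, 2 of the 3 genes were above that floor and 0 were called, where 11.1% of 2708 genes were higher after heat and 9.86% lower. In HY, AST-A alone was above the floor and it was called lower, where 4.59% of 2810 genes were lower and 14.1% higher. That split in HY depended on the scaling: 75.5% of called genes were higher as deposited, 34.4% when centred on the median gene and 46.9% with median-of-ratios factors. The AST-A ratio was -4.08 and -4.09 under those scalings. The genes were picked with these contrasts known, so nothing is read from their counts.

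The second question was how the varieties differed at a given condition. In control larvae NPF2 was 28.7-fold higher in 932 than in HY, an estimate that rests on 2 tags in HY and has an interval of [7.51 to 239]. RpL32 read as low as that, 0.34 RPM, in 932 heat, so the limit on values listed at 0 holds for this fold too. The interval does not cover tags that failed to be counted. NPF1 read 18.1 RPM against a value listed at 0, and AST-A was listed at 0 in 932 against 22.4 RPM in HY. On the log2(RPM + 1) scale NPF1 and NPF2 were called higher in 932 and AST-A lower, where 17.9% of 2780 genes were higher and 15.1% lower.

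After heat the difference in AST-A between varieties was within counting error, at 0.86 RPM in 932 and 1.67 RPM in HY, a log2 ratio of -0.96 [-2.86 to 0.73]. NPF1 read 23.0 RPM and NPF2 12.2 RPM in 932 heat, and both were listed at 0 in HY heat. Both were called higher in 932 and AST-A was not called, where 14.1% of 2990 genes were higher and 20.8% lower. Of the called genes 40.4% were higher in 932 as deposited and 60.3% when centred on the median gene, whose log2 ratio was -0.26, or 56.9% with median-of-ratios factors. The listed values of AST-A thus separated the varieties in control larvae, and those of the NPF genes under both conditions, as far as single libraries show. Each of these comparisons holds a library listed at 0 or at 2 tags, and whether tags went uncounted there was not tested. The control and heat comparisons of the varieties share no library.

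**Figure D2:**
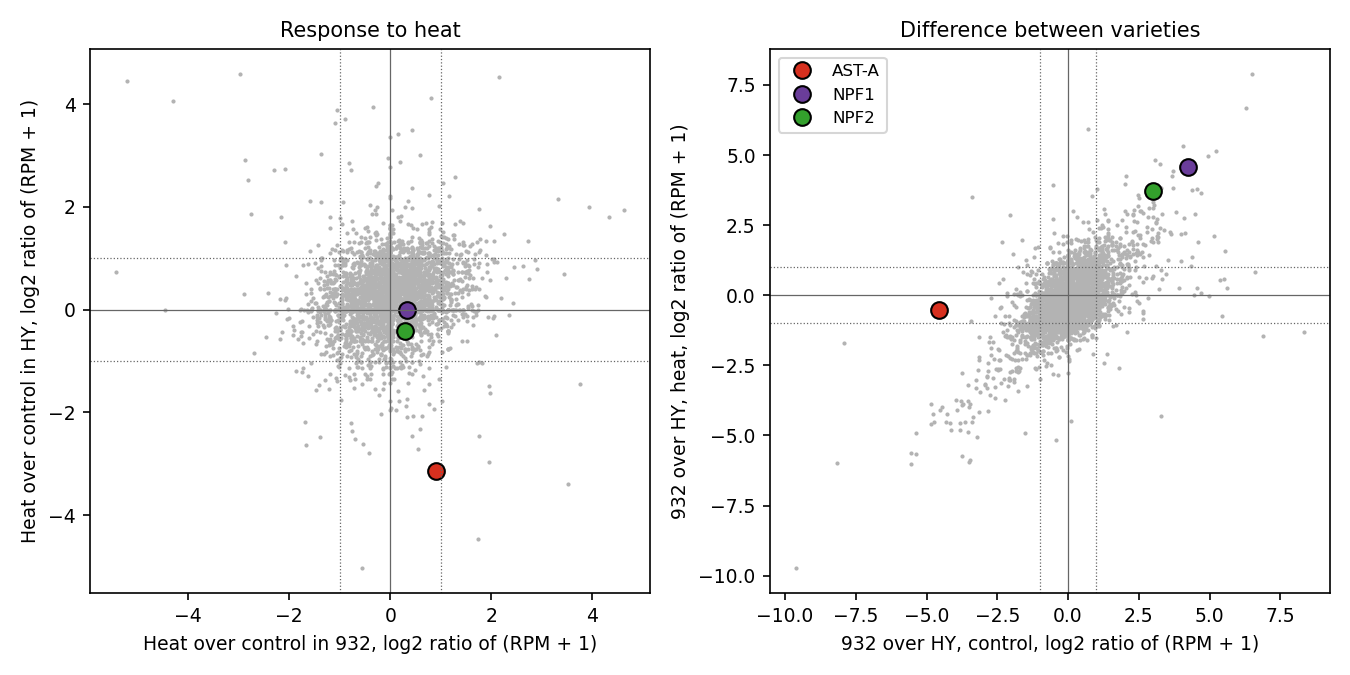
Log2 ratios of (RPM + 1) for all genes with at least 1 RPM in a library (grey points), with AST-A, NPF1 and NPF2 as coloured points and dotted lines at 2-fold. The left panel sets heat over control in 932 (horizontal) against HY (vertical), where AST-A stands at -3.13 in HY, and the right panel sets 932 over HY in control (horizontal) against heat (vertical), where NPF1 and NPF2 stand beyond 2-fold on both axes and AST-A only on the horizontal one.

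Genes with such a division between varieties were a small share of the table. Among 1711 genes with at least 5 RPM in a library, 19 had at least 5 RPM in both 932 libraries and at most 0.5 RPM in both HY libraries, which is 1.11%, and NPF1 and NPF2 were among them. In the other direction there were 23, or 1.34%. RpL32 was among these 23, and the signal recognition particle gene Srp9 (BGIBMGA001186) was among the 19. Meeting these limits therefore does not show that a gene was silent in a variety. The AST-A shape, at least 5 RPM in HY control and at least 10-fold lower in the other 3 libraries, was met by 2 genes. The other was BGIBMGA009067, matched to a chitin binding domain 3 protein, which read 395 RPM in HY control, 16.98 RPM in HY heat, 4.46 RPM in 932 heat and 0.65 RPM in 932 control. These limits were chosen after the values were seen and serve as description.

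Genes with the profile most like each peptide gene were found by the distance between centred log2(RPM + 1) values over the 4 libraries, among genes with a named product. The closest to AST-A was myo-inositol oxygenase (BGIBMGA005786), at a distance of 0.89, which read 3.91 RPM in 932 control, 5.66 in 932 heat, 51.7 in HY control and 11.5 in HY heat. The second was another neuropeptide, allatotropin (BGIBMGA011850), at 1.46. A short-chain dehydrogenase (BGIBMGA008138), a solute carrier family 35 member (BGIBMGA012057) and eukaryotic initiation factor 4E-1 (BGIBMGA012675) followed at 1.59 to 1.65.

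For NPF1 the closest were a CGI-01 protein (BGIBMGA006114) at 0.43 and the epimerase family gene SDR39U1 (BGIBMGA011707) at 0.60, followed by a chymotrypsin-like proteinase (BGIBMGA008279), the alpha-esterase ae48 (BGIBMGA011218) and a fascin, an actin-bundling protein (BGIBMGA005701). SDR39U1 read 22.6 and 19.9 RPM in the 932 libraries, and in HY it was listed at 0 in control and read 0.5 RPM after heat. For NPF2 the closest were the nucleoporin Nup43 (BGIBMGA013491) at 0.36, the same fascin at 0.38 and a FERM, RhoGEF and pleckstrin domain protein (BGIBMGA003425) at 0.39, followed by a ferritin precursor (BGIBMGA008768) and ae48. Fascin and ae48 stood among the 5 closest to both NPF genes. NPF1 and NPF2 were 1.10 apart from each other, while AST-A was 7.31 from NPF1 and 6.22 from NPF2.

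The other peptide hormone precursors in the table, 9 genes taken by product name, did not share 1 pattern. Allatotropin, named for stimulating juvenile hormone synthesis in the tobacco hornworm, was listed at 0 in 932 control and read 0.69 RPM in 932 heat, 5.52 RPM in HY control (32 tags) and 0.83 RPM in HY heat (5 tags). Like AST-A it was high in HY control alone, and its log2 ratio of heat over control in HY was -2.73 [-4.45 to -1.36]. The insulin-like peptide gene BmILP (BGIBMGA000667) was listed only in 932, as NPF1 was, at 1.63 RPM in control and 1.72 RPM after heat, 10 tags each.

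Allatostatin C and diuretic hormone 31 were listed in all 4 libraries. Allatostatin C (AST-C, BGIBMGA005369), which despite its name is unrelated in sequence to AST-A and inhibits juvenile hormone synthesis in the tobacco hornworm, read 25.6 RPM in 932 control, 34.1 in 932 heat, 36.6 in HY control and 50.8 in HY heat. It was somewhat higher after heat in both varieties, with log2 ratios of 0.42 [0.11 to 0.73] in 932 and 0.47 [0.22 to 0.73] in HY, both short of 2-fold. The HY value is near the median of 0.34 over all genes. Diuretic hormone 31 (Dh31, BGIBMGA011588), a calcitonin-like peptide that drives gut contraction in fruit flies, read 8.14, 7.21, 10.2 and 5.49 RPM in the same order, and its log2 ratio in HY was -0.89 [-1.55 to -0.25].

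Orcokinin (BGIBMGA005421), a neuropeptide of crustaceans and insects, read 2.44 RPM in 932 control and 0.69 RPM in 932 heat, and 0.52 and 0.67 RPM in the HY libraries. Of the precursors above the floor, 0 of 5 were higher and 1 lower after heat in 932, and 0 of 4 were higher and 1 lower in HY, or 2 lower in HY after centring. Their median log2(RPM + 1) ratio was 0.05 in 932, beside 0.02 for all genes, and -0.38 in HY, beside 0.34. Between varieties in control larvae 2 of 6 were higher in 932 and 1 lower, and after heat 1 of 4 was higher and 0 were lower. Over all genes 11.1% were higher and 9.86% lower after heat in 932, and 14.1% and 4.59% in HY. For 932 over HY the shares were 17.9% and 15.1% in control larvae and 14.1% and 20.8% after heat. With so few precursors above the floor, nothing is read from their counts. The remaining precursors, for corazonin, bombyxin A-2 and the CRF-like diuretic hormone, stayed at or below 0.86 RPM, and a possible neuropeptide precursor (BGIBMGA008978) read 2.61 to 4.46 RPM.

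**Figure D3:**
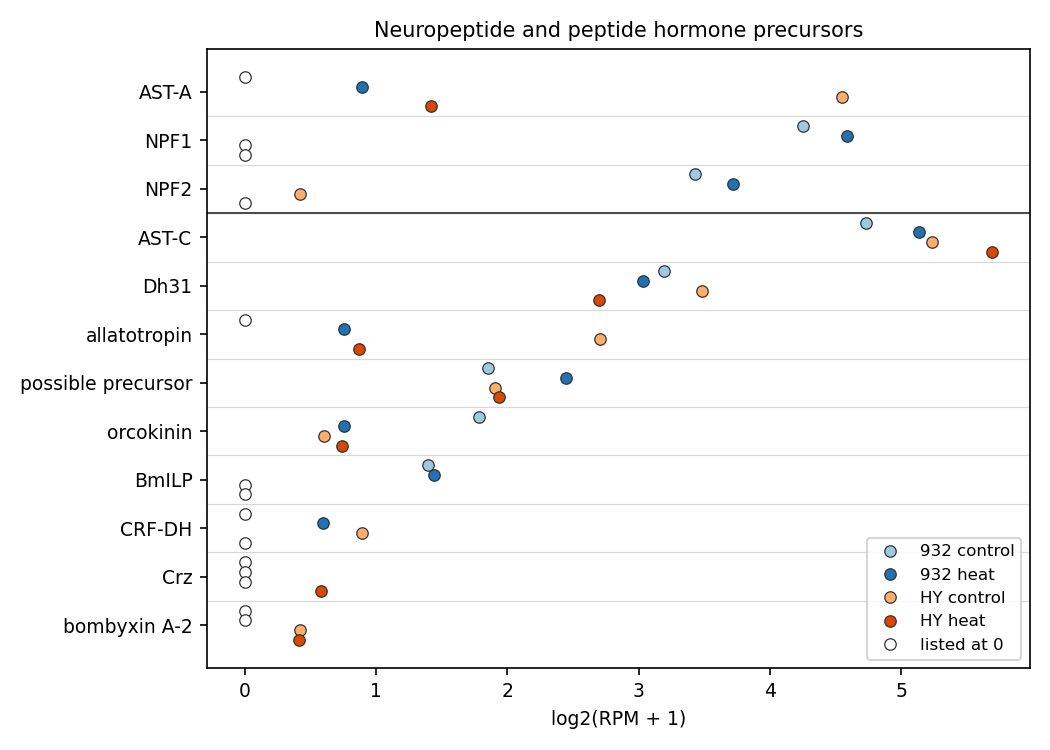
Level of 12 neuropeptide and peptide hormone precursors as log2(RPM + 1) (horizontal axis), one gene to a row and one point to a library, with open points where a gene was listed at 0. AST-A and allatotropin stand apart in HY control, NPF1, NPF2 and BmILP in the 932 libraries, and AST-C and Dh31 are above 5 RPM in all 4 libraries.

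The allatostatin A receptor gene (Alstr, BGIBMGA005708) was listed at 0 in 3 libraries and read 0.67 RPM in HY heat. Of 23 genes taken as peptide receptors by name, a list that also took in a frizzled-type receptor and a nuclear hormone receptor, 8 were above the floor in the comparison of 932 heat with control. There 2 were higher and 1 lower, around a median of 0.12, beside 0.02 for all genes, of which 11.1% were higher and 9.86% lower. In HY 1 of 8 was higher and 0 lower, or 0 of each after centring. The median there was 0.46, beside 0.34 for all genes, of which 14.1% were higher and 4.59% lower. For 932 over HY, 4 of 9 receptors were higher and 1 lower in control larvae, and 1 of 9 was higher and 2 lower after heat. Over all genes the shares were 17.9% and 15.1% in control larvae and 14.1% and 20.8% after heat.

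Neuropeptide receptor A11 (NGR-A11, BGIBMGA012041) read 1.14 RPM in 932 control and 5.15 RPM in 932 heat, a log2 ratio of 2.18 [0.96 to 3.61], and 2.07 and 1.83 RPM in HY. The leucine-rich repeat receptor Lgr (BGIBMGA009887) read 1.79 and 4.80 RPM in 932, with a log2 ratio of 1.42 [0.37 to 2.58], and 4.31 and 3.50 RPM in HY. The frizzled-type receptor (BGIBMGA007384) read 2.61 and 0.34 RPM in 932 and was listed at 0 in HY. Neuropeptide receptor B3 (NGR-B3, BGIBMGA012453) read 65.5 and 66.4 RPM in 932 and 21.6 and 44.1 RPM in HY. It was the receptor called in HY, at 1.00 on the log2(RPM + 1) scale.

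Genes that make, release and degrade peptides were read from 3 lists. A model matched to the peptidyl-glycine amidating enzyme (BGIBMGA001905), which finishes amidated peptides, was listed at 0 in all 4 libraries, and a furin-like convertase (BGIBMGA001513), a precursor-cutting protease, did not pass 0.33 RPM. Of 4 processing genes, 1 was above the floor, a signal peptidase 12kDa subunit (BGIBMGA007043) at 43.3 to 61.4 RPM. It was not called in any comparison. Among 8 vesicle secretion genes, 1 of 4 was lower after heat in 932, with a median of -0.42, where 9.86% of all genes were lower. In HY 1 of 3 was higher, with a median of 0.58, where 14.1% of all genes were higher. That count was 0 after centring and 1 with median-of-ratios factors. For 932 over HY in control larvae 2 of 3 were higher, with a median of 1.22 beside 0.05 for all genes. After heat 1 of 4 was higher, with a median of 0.04 beside -0.26. The count after heat was 2 after centring and 1 with median-of-ratios factors. Over all genes 17.9% were higher in control larvae and 14.1% after heat. Synaptobrevin (BGIBMGA001258), a vesicle fusion protein, read 4.07 and 1.89 RPM in 932 and 0.86 and 3.66 RPM in HY, and syntaxin 5A (BGIBMGA010620), which acts at the Golgi, read 19.6 and 8.75 RPM in 932 and 11.6 and 17.8 RPM in HY.

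Among 7 genes of peptide degradation, 1 of 4 was lower after heat in each variety, and the median was -0.77 in 932 and -0.21 in HY. Over all genes 9.86% were lower in 932 and 4.59% in HY, with medians of 0.02 and 0.34. Between varieties 0 of 4 were called under either condition, where 33% of all genes were called in control larvae and 34.8% after heat. The gene lower after heat was the same in both varieties, an angiotensin-converting enzyme-related peptidase (BGIBMGA002527). It read 124 and 53.4 RPM in 932, a log2 ratio of -1.22 [-1.41 to -1.03], and 77.8 and 32.1 RPM in HY, a ratio of -1.27 [-1.53 to -1.03].

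Markers of other cells were read beside the peptide genes, since fewer peptide-making cells and less RNA in each cell cannot be told apart in whole midgut. The 3 neuron markers in the table, an ELAV-like protein, acetylcholinesterase type 1 and tyrosine hydroxylase, summed to 0.33 RPM in 932 control, 0.68 in 932 heat, 0.52 in HY control and 0.83 in HY heat. None passed 0.52 RPM in any library, so neurons could not be followed with these genes, which were taken by product name. The list of enteroendocrine factors matched a single gene, an inscuteable-like protein that does not define these cells, at 0 to 0.33 RPM, so that cell type could not be followed.

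The summed level of 23 muscle markers was 1241, 1149, 1062 and 1601 RPM in 932 control, 932 heat, HY control and HY heat, with 4 or 5 of the genes listed at 0 in each library. Midgut epithelium markers summed to 16434, 8876, 9037 and 12179 RPM in the same order, with 5 to 8 of 41 listed at 0. That sum leans on its largest member, peritrophic membrane chitin binding protein 1 (BGIBMGA001491), which read 6170, 1982, 3129 and 5774 RPM. Fat body and haemolymph markers summed to 77.9, 74.8, 41.2 and 53.3 RPM, with 5 to 11 of 15 listed at 0. The largest member of the fat body list in both 932 libraries was BGIBMGA012788, a match to 30kP protease A. It was taken in by its name, which is that of a protease, and read 45.3, 30.9, 9.31 and 15.3 RPM in the same order. The fat body sums are thus a poor measure of that tissue. All 3 sums were higher in HY heat than in HY control, while AST-A was lower in HY heat, and their part in that difference was not tested. The sum over all listed genes was also higher, at 149969 RPM in HY heat and 115679 RPM in HY control. The epithelium list was split there, with 8 of 33 genes higher and 7 lower and a median log2(RPM + 1) ratio of 0.20, below the 0.34 of all genes. The muscle list had a median of 0.58 and 2 of 17 genes called, both higher. The fat body list had a median of 0.66, which was the value of the 30kP protease A match, and of 5 genes 1 was called in each direction. Over all genes 14.1% were higher and 4.59% lower. After centring, 7 epithelium genes were higher and 9 lower, and 0 muscle genes were called. In the fat body list 0 were then higher and 1 lower. Median-of-ratios factors gave the same counts, save for 1 muscle gene higher.

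By the naming rule, paramyosin (BGIBMGA008948) and caldesmon (BGIBMGA005552) of the muscle list read 2.44 and 4.56 RPM in 932 control and 9.26 and 12.2 RPM in 932 heat. They do not stand for their list, which had 2 of 18 genes higher and 0 lower after heat in 932. Its median log2(RPM + 1) ratio there was -0.03, beside 0.02 for all genes, of which 11.1% were higher and 9.86% lower. In the epithelium list a trypsin-like proteinase (BGIBMGA003605) read 57.4 RPM in HY control and 768 RPM in HY heat, and midgut carboxypeptidase A1 (BGIBMGA009478) read 0.86 and 12.7 RPM. Among the 7 lower members of that list, trypsin BGIBMGA001320 read 130.2 and 20.2 RPM and aminopeptidase N-3 (BGIBMGA008061) read 150.4 and 50.8 RPM in HY, both named after their values were seen. In the fat body list a 30kDa protein (BGIBMGA004397) read 1.20 RPM in 932 heat and 0.69 RPM in HY control, with nothing listed in the other libraries.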

How the data were processed

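Midgut RNA was extracted with Trizol and sequenced from a standard Illumina library, per the labels' protocols. The sources used here name no aligner, counting tool or gene model build. The deposited table, per the file headers, holds normalized values called TPM, which behave as RPM: in each library 100% of values were whole numbers of tags within 0.0051 RPM at the totals given above, against at most 19.5% at totals 2% to 5% away. No per-gene test was run, because each group holds 1 library. Ratios printed for a single gene with an interval are plain ratios of RPM with exact conditional (Clopper-Pearson) intervals on tag numbers, and single levels have exact Poisson intervals. Calls, and medians over all genes and lists, used ratios with 1 RPM added.

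The genes, the lists and the limits were chosen with earlier results of these data known. Lists were product-name patterns. The text names the 3 genes, up to 4 genes of each peptide list and up to 2 of each cell marker list that reached 2-fold in a heat comparison, the 5 nearest profiles, and others as background or as stated. Symbols came from RefSeq (assembly ASM3026992v2) through the protein match, for 3 of 3 genes. Steps were tested on simulated data. Tables were handled with pandas 2.3.3 and numpy 2.4.6 in Python 3.11.15, intervals were computed with scipy 1.17.1, and plots were drawn with matplotlib 3.10.9.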

Additional observations from a re-analysis of the deposited data

Results flagged for a closer look

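AST-A read 22.4 RPM in HY control and 1.67 RPM in HY heat, while in 932 it was listed at 0 in control and read 0.86 RPM after heat, so the listed values had opposite signs of change. The log2(RPM + 1) responses were 0.90 and -3.13, a difference of 4.03 (932 minus HY). The 932 value rests on 5 tags and on the added 1, was below the floor of 1 RPM and was not called, so no direction is read from it. The difference was not tested, since each response is 1 pair of libraries. Lp-c6 (BGIBMGA004394), a 30-kDa lipoprotein of the fat body list, also had opposite signs. It went from a value listed at 0 to 10.5 RPM in 932 and from 9.48 RPM to a value listed at 0 in HY. The log2(RPM + 1) responses differed by 6.91, which was not tested either.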

How the results depend on the processing

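The 5 ratios of AST-A, NPF1 and NPF2 that had tags in both libraries kept their direction under all 6 alternatives (0.1, 1 or 10 added, totals without the 20 most abundant genes, median-of-ratios factors, centring), and 28 of 30 values stayed within the counting interval. With 10 added, the AST-A log2 ratio of heat over control in HY was -1.47 and the NPF2 ratio of 932 over HY in control was 0.94. By construction an added 10 shrinks ratios of low values. Comparisons with a library listed at 0 were given no plain ratio, so they were not recomputed, and their calls rest on the added 1, and the comparison of AST-A between varieties after heat rests on 5 and 10 tags.

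Counts over all genes moved more. With a floor of 10 RPM, which tests fewer genes, 112 genes were higher and 118 lower after heat in 932, 155 and 50 in HY, 215 and 145 for 932 over HY in control, and 159 and 235 after heat. With 10 added they were 36 and 54, 56 and 26, 135 and 88, and 92 and 118 in the same order. With 0.1 added they were 498 and 431 in 932 and 650 and 209 in HY. As reported the counts were 300 and 267, 397 and 129, 499 and 419, and 421 and 621. Centring gave 127 higher and 242 lower in HY and 352 lower for 932 over HY after heat, and median-of-ratios factors gave 169 higher in HY and 384 lower for 932 over HY after heat. Leaving out a replicate was not possible with 1 library a group. No paired analysis was possible because each group holds 1 library and no test was run.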
